A study of Drosophila melanogaster with 24 samples.

Results

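The Antennapedia complex is the anterior cluster of Hox and related homeobox genes on chromosome arm 3R of Drosophila. The 8 member genes described here are lab, pb, zen, bcd, Dfd, Scr, ftz and Antp, out of 13922 protein-coding genes on the main chromosome arms. The rule that set them uses names and positions and no measured value, but the choice of this gene cluster was made with earlier results of these data known. Every peak was taken that lay between the left end of lab and the right end of Antp, or within 20 kb on either side (3R, 6641427 to 7019228, dm6). Left and right stand for lower and higher coordinates, because the gene table used gives no strand. The interval was 378 kb long and held 70 peaks, 37 from mock-treated cells and 33 from Isha-depleted cells.

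The proteins Isha, Su(Hw), CP190 and Mod(mdg4)67.2, an isoform called Mod(mdg4) from here on, were mapped by ChIP-seq, the sequencing of DNA recovered with an antibody, in Kc167, an established female line of embryonic cells. One set of cells was mock treated, and the labels do not say what the mock treatment contained. The other, labelled IshaKD, received 12 µg of dsRNA directed at Isha by nucleofection and was kept for 5 days. Each of the 4 antibodies was used in 2 replicates per treatment, and the replicates of Isha used different rabbit antisera, which gives 16 immunoprecipitates beside 8 inputs. Nothing in the labels says that replicates came from separate cultures. The design compares the positions of the 4 proteins with each other and, for each protein, with and without Isha depletion.

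The data used here were 8 peak lists, 1 for each antibody and treatment, with positions and no score. Since each antibody has 1 list per treatment, differences between treatments could not be set against a replicate error and have no p-value. A peak missing from a list may be absent or may be a weaker peak below the authors' threshold, and these cannot be told apart. The Isha list held 4735 peaks in mock cells and 932 after knockdown, which is the check of the targeted protein that the files allow. The other lists held 1091 to 8880 peaks. RNA was not part of these files, so the activity of the Hox genes in this line was not measured.

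Hox proteins are homeodomain transcription factors that give body segments their identity, and their order along the chromosome follows the order of the segments they specify. The clusters are held in domains of active or Polycomb-repressed chromatin, and insulators are known to separate the regulatory DNA of neighbouring genes. In flies, lab, pb, Dfd, Scr and Antp are the Hox genes of the head and thorax. zen, bcd and ftz arose from Hox genes but have other roles: zen in the dorsal embryonic tissue that forms extraembryonic membranes, bcd as the maternal anterior morphogen and ftz as a pair-rule segmentation gene. Su(Hw) is the zinc finger protein of the gypsy class of insulator, and CP190 and Mod(mdg4)67.2 are its partners. CP190 also joins other DNA-binding insulator proteins at sites without Su(Hw).

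CP190 was the protein found along the whole complex, Su(Hw) lay at fewer places, Mod(mdg4) at 2 and Isha at none of the DNA from lab to Antp. In mock cells the interval held 22 CP190 peaks, 10 Su(Hw) peaks, 2 Mod(mdg4) peaks and 3 Isha peaks, the last all to the left of lab. After knockdown it held 24 CP190, 7 Su(Hw), 2 Mod(mdg4) and 0 Isha peaks. Joining peaks that overlapped across the lists gave 23 sites, all of them with CP190 in at least 1 treatment. At 9 sites CP190 was the only protein in mock cells, 8 had CP190 with Su(Hw), 2 had CP190 with Su(Hw) and Mod(mdg4), and 3 had CP190 with Isha. The last site, inside Dfd, had CP190 after knockdown only.

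**Figure D1:**
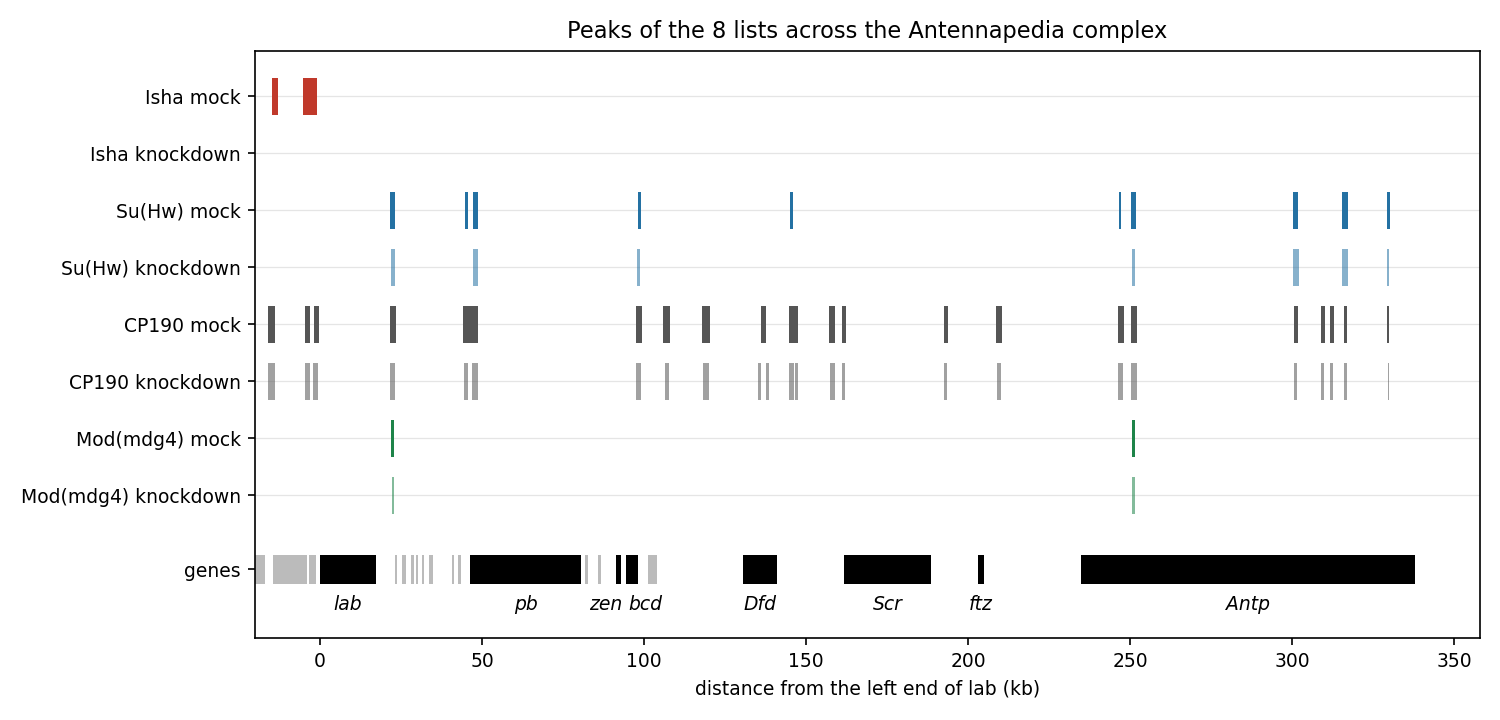
Position of every peak in the Antennapedia complex and 20 kb on each side, by distance from the left end of lab in kb, with 1 row per antibody and treatment (full colour mock, pale knockdown). Black boxes are the 8 member genes and grey boxes other protein-coding genes, without CG46458, which lies inside the span of Antp. The 3 Isha peaks lie left of 0, and CP190 peaks occur from lab to Antp.

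The 8 genes were first compared with all protein-coding genes by a single rule, a peak overlapping the gene or the 1000 bp on either side. CP190 was at 6 of 8 members in mock cells (lab, pb, bcd, Dfd, Scr and Antp), where 61.0% of all genes had it. After knockdown CP190 was at the same 6, against 63.0% of all genes. Su(Hw) was at 3 members, pb, bcd and Antp, in each treatment, against 22.6% of all genes in mock cells and 20.9% after knockdown. Mod(mdg4) was at Antp alone in each treatment, against 8.23% and 7.71%. Isha was within 1000 bp of 1 member, lab, in mock cells, where 49.7% of all genes had it, and of 0 members after knockdown, against 14.8%. The members thus differed among themselves: Antp, pb and bcd had Su(Hw) and CP190, Dfd and Scr had CP190, lab had CP190 and Isha nearby, and zen and ftz had no peak from any list. With 8 genes these shares move by large steps, and CP190 at the members was near the share of all genes. The rule takes the whole gene, and member spans ran from 1.33 kb (zen) and 1.92 kb (ftz) to 103 kb (Antp). All genes were not matched to the members for length, and the part of length in these calls was not tested.

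Other rules for assigning peaks to genes were also applied, and the counts for the members depended on them. Within the gene span alone, CP190 was at 5 of 8 members in each treatment (54.9% of all genes in mock cells and 56.0% after knockdown), since its peak at lab lay outside the gene. Su(Hw) was in 3 in each treatment (17.6% and 15.8%), Mod(mdg4) in 1 (5.92% and 5.42%) and Isha in 0 (43.6% and 11.3%).

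With 5000 bp on either side, CP190 reached all 8 members in each treatment, zen and ftz included, where 79.1% of all genes in mock cells and 80.7% after knockdown had it. Su(Hw) then also reached lab and Dfd, 5 members in mock cells and 4 after knockdown, the difference being Dfd (38.6% and 36.8% of all genes). Mod(mdg4) reached lab and Antp in each treatment (15.1% and 14.0%), and Isha reached lab in mock cells alone (61.2% and 22.9%). A window of 500 bp around each gene end asks for peaks at the borders of genes. CP190 lay there at lab, pb, bcd and Scr in mock cells, and at bcd and Scr after knockdown (54.9% and 56.6% of all genes). Su(Hw) was there at bcd alone in each treatment (14.9% and 13.2%), and Mod(mdg4) (4.54% and 4.34%) and Isha (45.9% and 12.9%) at 0 members. Antp, with its peaks deep inside the gene, had none at its ends.

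**Figure D2:**
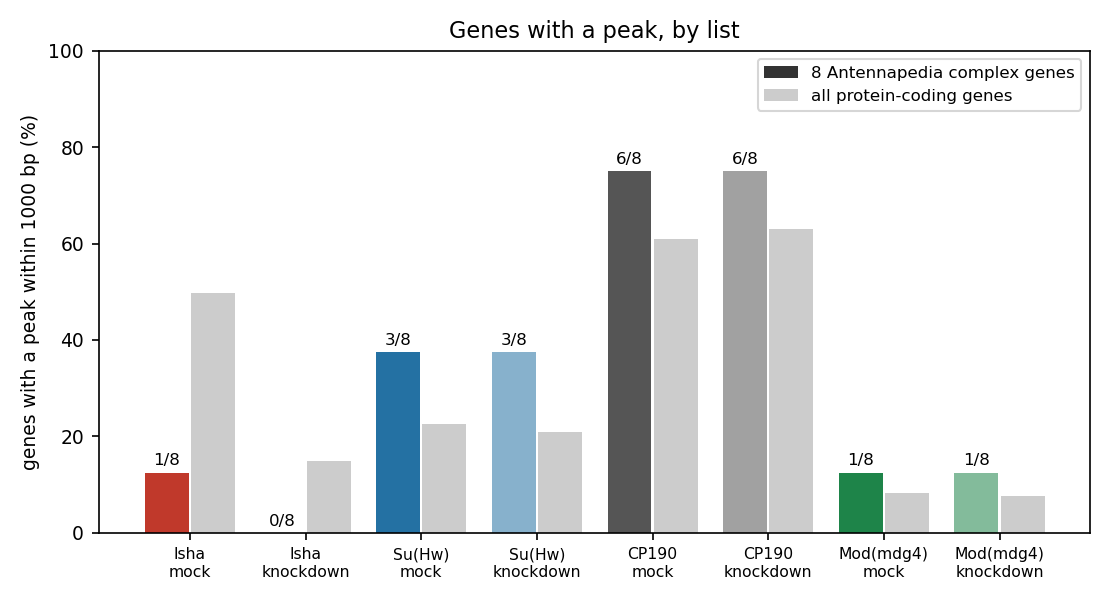
Percent of genes with a peak in the gene or within 1000 bp of it, for each list. In each pair the left bar is the 8 Antennapedia complex genes, with the count above it, and the right, light grey bar all protein-coding genes. The bar for mock Isha is 1 of 8 beside 49.7%.

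lab, the most anterior of the Hox genes, spans 6661427 to 6678590 and had no peak inside it from any list. The call for Isha at lab came from a peak at 6658988 to 6660507 that overlapped twr and agt, a gene for a DNA repair alkyltransferase, and ended 920 bp short of lab. The mock CP190 peak at 6659442 to 6660952 lay over the same genes and ended 475 bp from lab, and its knockdown counterpart at 6659341 to 6660722 ended 705 bp from it. The other Isha peaks were farther out, at 6656186 to 6658789 over CG1307 and twr, and at 6646564 to 6648286 in Taf1, which encodes a subunit of the general transcription factor TFIID. All 3 overlapped a mock CP190 peak, beside 72.6% of 1042 mock Isha peaks on the rest of 3R. With midpoints within 250 bp the share of the 3 was 33.3%. A knockdown Isha peak was present at 0 of 3 (Wilson 95% upper bound 56.1%), where 81.1% of all mock Isha peaks on the main arms had none. CP190 remained at all 3 places, with widths of 2041, 1514 and 1382 bp after knockdown against 2318, 1522 and 1511 bp in mock cells. Of the 6 protein-coding genes left of lab, 4 (Taf1, CG1307, twr and agt) had mock Isha by the rule for genes, and the same 4 and Ass had CP190 in each treatment.

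From the last of these peaks to the next one beyond Antp, the mock Isha list was empty over 406 kb, from 6660508 to 7066208. This was the longest stretch without mock Isha on 3R but for 2 others, among 1048 gaps between neighbouring Isha peaks on that arm, and was number 25 of 4729 on all main arms. The median gap was 4.15 kb. The stretch held 25 complete protein-coding genes, 23 mock CP190 peaks, 14 mock Su(Hw) peaks and 3 mock Mod(mdg4) peaks, so the other antibodies gave peaks within it. The nearest mock Isha peak was 47.3 kb from pb, 92.4 kb from zen, 95.3 kb from bcd, 131 kb from Dfd, 163 kb from Scr, 200.0 kb from ftz and 67.0 kb from Antp. After knockdown the gap in the Isha list was wider, 624 kb, with the nearest peaks 203 kb left of lab and 82.9 kb right of Antp, in a list whose median gap was 35.8 kb.

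Between lab and pb lie 8 cuticle protein genes, Edg84A and the Ccp84A genes, which are not Hox genes but stand inside the cluster. A site with Su(Hw), CP190 and Mod(mdg4) in each treatment lay at the left end of Edg84A. There the mock CP190 peak spanned 6682896 to 6684751, the mock Su(Hw) peak 6682982 to 6684566 and the mock Mod(mdg4) peak 6683403 to 6684366. CP190 measured 1856 bp in mock cells and 1403 bp after knockdown, Su(Hw) 1585 and 1274 bp, and Mod(mdg4) 964 and 756 bp, so all 3 peaks were narrower after knockdown. The next 20.7 kb, over the Ccp84A genes, had no peak from any list. The cuticle genes were therefore bordered by insulator protein sites at each end, since the next site lay beyond Ccp84Aa, at the left end of pb.

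pb, the Hox gene of the mouthparts, spans 6707800 to 6742063 and had its peaks at its left end. In mock cells 2 CP190 peaks stood there, 103 bp apart, at 6705403 to 6708153 and 6708257 to 6710272, and each held a Su(Hw) peak. The Su(Hw) peak inside pb spanned 6708622 to 6710181 in mock cells and 6708653 to 6710170 after knockdown. The Su(Hw) peak outside pb, at 6706010 to 6706898, had no counterpart after knockdown. The CP190 peak around it was called in each treatment and measured 2751 bp in mock cells and 1396 bp after knockdown, a ratio of 0.507 and the lowest of 21 CP190 sites of the complex with 1 peak in each treatment. The remainder of pb, zen2, zen and most of bcd lay in a stretch of 48.6 kb with no peak from any list, the longest in the interval.

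zen (6752864 to 6754194) stood in that stretch, 4.65 kb from the nearest mock CP190 peak and 5.16 kb from the nearest mock Su(Hw) peak. bcd (6755842 to 6759466) had a site across its right end. CP190 spanned 6758846 to 6760684 in mock cells and 6759013 to 6760476 after knockdown, and Su(Hw) 6759349 to 6760455 and 6759243 to 6760105. Its peaks ran on towards Ama, an immunoglobulin domain gene without a peak within 1000 bp.

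Between bcd and Dfd, CP190 stood without the other proteins at 6767345 to 6769356 and at 6779376 to 6781573, near the ends of a long noncoding RNA gene, lncRNA:CR42721, and inside Dfd itself. Dfd, the Hox gene of the maxillary and mandibular segments, spans 6791836 to 6802428. Its mock CP190 peak at 6797417 to 6798994 had, in the knockdown list, a peak on either side, at 6796404 to 6797414 and 6798863 to 6799876. The first ended 2 bp short of the mock peak and was the only CP190 peak of the interval without a mock counterpart. The second shared 132 bp with it, so 8.37% of the mock peak was covered after knockdown. It counted as kept under the rule of 1 shared base pair, but not at 50% reciprocal overlap or by midpoints within 250 bp.

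Between Dfd and mir-10, a microRNA gene found in Hox clusters across animals, a wide mock CP190 peak of 2972 bp (6806044 to 6809015), which reached the noncoding gene lncRNA:CR42651, corresponded to 2 knockdown peaks of 1335 and 702 bp inside it. The mock Su(Hw) peak at this site, 6806312 to 6807479, was not in the knockdown list. Nearer to Scr, CP190 lay over genes for small structural RNAs. A peak of 1682 bp at 6818552 to 6820233 covered tRNA:Lys-TTT-2-1 and reached the left end of 7SLRNA:CR42652, a gene for the RNA of the signal recognition particle. A peak of 1239 bp at 6822495 to 6823733 covered 7SLRNA:CR32864, tRNA:Lys-TTT-2-4 and the left end of Scr. After knockdown these measured 1526 and 892 bp. Of the 4 tRNA genes of the complex the peaks overlapped 2, where 39.3% of 290 tRNA genes on the main arms had a mock CP190 peak and 40.7% a knockdown one.

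Scr, the Hox gene of the labial and first thoracic segments, spans 6823120 to 6849981, and apart from the peak at its left end was free of peaks. ftz, which lies within the cluster between Scr and Antp but has a regulatory programme of its own, had CP190 on each side and none in it. On the left the mock peak lay at 6853906 to 6855011, 3.92 kb beyond Scr and 9.31 kb short of ftz. On the right it lay at 6869950 to 6871692, 3.71 kb beyond ftz and 24.6 kb short of Antp. The 14.9 kb between these peaks held the whole of ftz (6864324 to 6866244) and no peak from any list. The left peak measured 1106 bp in mock cells and 980 bp after knockdown, and the right 1743 and 1072 bp. Insulators on either side of ftz are known from earlier work, but their positions are not in the files used here, and whether these peaks are the same elements was not tested. Su(Hw) had no peak from 6807480 to 6907799 in mock cells, a gap of 100 kb that held all of Scr and ftz. After knockdown its gap ran from 6760106 to 6911798, 152 kb, and took in Dfd as well.

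Antp, the Hox gene of the second thoracic segment, spans 6896253 to 6999228, which is 30.5% of the DNA from lab to Antp. The protein-coding gene CG46458 (6896253 to 6958370) lies inside this span, and the peaks of the left group described next overlapped it too. Antp held 7 of the 22 mock CP190 peaks, 5 of the 10 Su(Hw) peaks and 1 of the 2 Mod(mdg4) peaks. They fell into groups at the left and right parts of the gene, with 48.2 kb between them free of peaks from all lists. The left group had 2 sites. At 6907549 to 6909333, CP190 was called in each treatment, and Su(Hw) at 6907800 to 6908609 in mock cells only. At 6911468 to 6913461, CP190, Su(Hw) and Mod(mdg4) were called in each treatment, and the Mod(mdg4) peak measured 947 bp in mock cells and 979 bp after knockdown.

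The right group of Antp had 5 sites. Su(Hw) and CP190 were together at 3 of them in each treatment, with mock Su(Hw) at 6961657 to 6963295, 6976665 to 6978547 and 6990599 to 6991415. CP190 was alone at the other 2, at 6970234 to 6971340 and 6972976 to 6974401. At the 3 joint sites the mock Su(Hw) peak was wider than the CP190 peak, 1639 against 1067 bp, 1883 against 1121 bp and 817 against 628 bp. At the other 7 Su(Hw) sites of the complex the CP190 peak was the wider. The 20 kb to the right of Antp had no peak from any list.

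In all, 7 stretches of at least 20 kb had no peak from any of the 8 lists, and they made up 61.7% of the interval, 233 kb. They lay over lab, over the Ccp84A genes, over pb, zen and bcd, and over Scr. The others ran from the CP190 peak right of ftz into the left part of Antp, in the middle of Antp, and from the last site of Antp to the edge of the interval. By the midpoints of the peaks, 9 of the 22 mock CP190 peaks were inside a member gene, 10 between members and 3 left of lab. Of the 10 mock Su(Hw) peaks 6 were inside pb or Antp and 4 between members.

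Su(Hw) was always with CP190 in the complex. All 10 mock Su(Hw) peaks overlapped a mock CP190 peak (100%, Wilson 95% interval 72.2 to 100%), beside 77.6% (75.2 to 79.8%) of 1223 on the rest of 3R. The same was true of the 7 knockdown peaks, beside 79.3% on the rest of 3R. The midpoints of Su(Hw) and CP190 peaks were a median of 137 bp apart in mock cells (12 to 634 bp). Of the 10 mock Su(Hw) peaks, 70% had CP190 at 50% reciprocal overlap and 80% with midpoints within 250 bp. Mock CP190 peaks had a median width of 1712 bp in the complex and 1372 bp on the rest of 3R. Of the 22 mock CP190 peaks 45.5% (26.9 to 65.3%) overlapped Su(Hw), beside 49.1% (46.9 to 51.3%) on the rest of 3R, and 13.6% (4.75 to 33.3%) overlapped Isha, beside 37.0% (34.9 to 39.2%). These intervals cover counting over peaks only, neighbouring peaks are not independent, and the difference between the complex and the rest of the arm was not tested.

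By the rule of 1 shared base pair, every mock CP190 and Mod(mdg4) peak of the complex was still called after Isha knockdown, and 3 of the Su(Hw) peaks were not. CP190 was kept at 22 of 22 mock peaks (100%, Wilson 95% interval 85.1 to 100%), beside a loss of 6.19% on all main arms. At 50% reciprocal overlap 90.9% of the 22 were kept, and with midpoints within 250 bp 86.4%. Mod(mdg4) was kept at 2 of 2, beside a loss of 26.0%. Su(Hw) was kept at 7 of 10 (70.0%, 39.7 to 89.2%), beside 89.9% (88.1 to 91.5%) kept on the rest of 3R. Its loss on all main arms was 10.1%. The intervals cover counting over peaks only, neighbouring peaks are not independent, and the difference was not tested. By genes, CP190 was lost from 0 of 6 members, Su(Hw) from 0 of 3 and Mod(mdg4) from 0 of 1, where 3.13%, 11.8% and 18.2% of all genes with a mock peak lost it. Isha was lost from lab, where 70.6% of all genes with mock Isha lost it. pb and Antp each kept another Su(Hw) peak, so the losses next to pb and in Antp did not change the calls by gene.

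The 3 Su(Hw) peaks that were not called after knockdown lay left of pb, between Dfd and mir-10, and in the left part of Antp. None of the 3 overlapped a mock Isha peak, the nearest being 45.5, 146 and 158 kb away. The 7 kept peaks did not overlap one either, with the nearest 22.5 to 153 kb away. Such overlap was rare elsewhere too, at 4.42% of 1223 mock Su(Hw) peaks on the rest of 3R. None of the 3 lost peaks had Mod(mdg4), and all kept a CP190 peak. Of the 7 kept peaks, 2 had Mod(mdg4) and all had CP190. On the rest of 3R 24.6% of mock Su(Hw) peaks had Mod(mdg4), and the difference between lost and kept peaks was not tested. The lost peaks measured 889, 1168 and 810 bp, a median of 889 bp. The 7 that were kept measured 817 to 1883 bp with a median of 1560 bp, so the ranges overlapped. On the rest of 3R the 123 lost Su(Hw) peaks also had a lower median width, 768 bp against 1631 bp. Of those 123, 76 (61.8%) had mock CP190, beside 873 (79.4%) of the 1100 that were kept there. The part of peak strength in these losses was not tested, since the lists give width and no height. At 2 of the 3 places a wider Su(Hw) peak remained close by, inside pb and at the site with Mod(mdg4) in Antp.

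**Figure D3:**
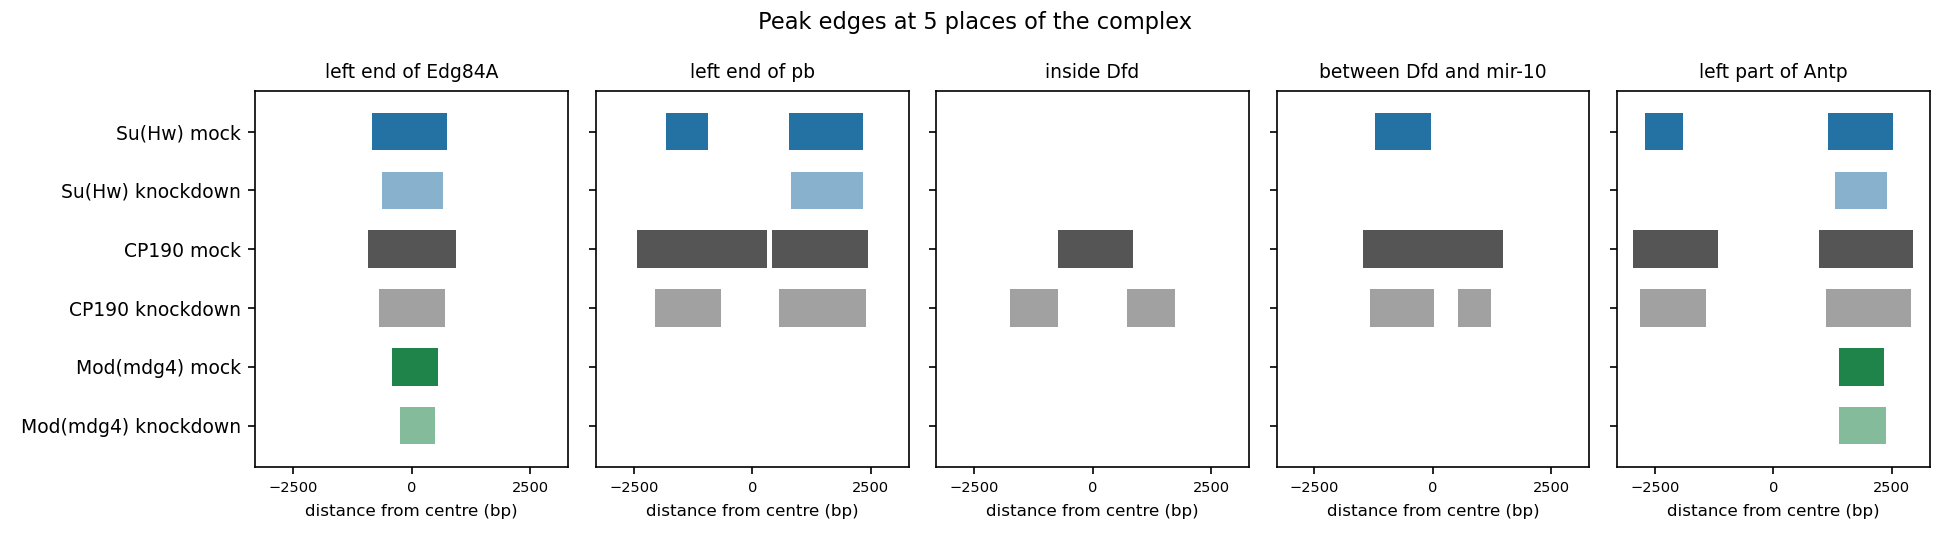
Edges of the Su(Hw), CP190 and Mod(mdg4) peaks at 5 places of the complex, by distance in bp from the centre of each place (full colour mock, pale knockdown). Su(Hw) is missing after knockdown left of pb, between Dfd and mir-10 and at the left site in Antp, while CP190 is present there in each treatment. Inside Dfd the knockdown CP190 peaks lie on either side of the mock peak.

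CP190 peaks of the complex were narrower after knockdown. Among the 21 mock peaks with exactly 1 knockdown counterpart all 21 were narrower, with a median width ratio of 0.796 (0.507 to 0.995), and 17 of the knockdown peaks lay wholly within the mock peak. On the rest of 3R the median ratio was 0.865 over 1800 such peaks, of which 86.9% were narrower. Su(Hw) was narrower at 6 of 7 sites, with a median ratio of 0.812 (0.726 to 1.02), beside 0.901 on the rest of 3R. The site where Su(Hw) was wider was in Antp, 1639 bp in mock cells and 1677 bp after knockdown. Narrower peaks after knockdown were thus also the rule outside the complex, and the part of depth or of the joining of replicates in this was not tested. CP190 covered 9.92% of the interval in mock cells and 7.89% after knockdown, beside 9.62% and 8.37% of the rest of 3R.

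**Figure D4:**
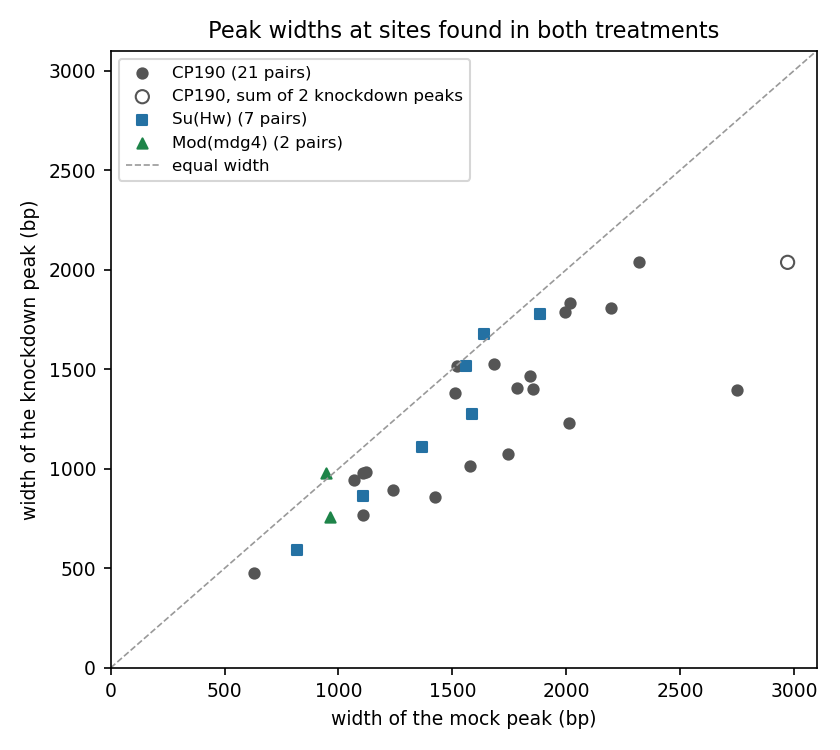
Width in bp of the knockdown peak against the mock peak at sites of the complex found in each treatment, the open circle being a mock CP190 peak with the sum of its 2 knockdown peaks. All 21 CP190 pairs lie under the dashed line of equal width, and 1 Su(Hw) and 1 Mod(mdg4) pair lie above it.

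The Bithorax complex, the posterior Hox cluster on the same arm (Ubx, abd-A and Abd-B, 3R, 16656623 to 16972236), was taken with the same 20 kb margins. It held 21 CP190, 7 Su(Hw), 1 Mod(mdg4) and 4 Isha mock peaks. Its Isha peaks too lay outside the cluster, 3 to the left of Ubx at other genes and 1 to the right of Abd-B, and the stretch between them without mock Isha was 340 kb, number 8 among the gaps on 3R. All of its 7 mock Su(Hw) peaks had CP190 and 5 were kept after knockdown. All of its 21 mock CP190 peaks were kept. Some other counts of the Bithorax complex were not identical to those of the Antennapedia complex. Isha was kept at 1 of 4 peaks, over CG10324 and CCT3, beside 0 of 3. Knockdown Su(Hw) peaks had CP190 at 5 of 6, beside 7 of 7. CP190 was narrower after knockdown at 18 of 20 sites with 1 peak in each treatment, beside 21 of 21. These differences rest on few peaks and were not tested.

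Per Mb, the mock lists gave 58.2 CP190 peaks in the Antennapedia complex, 59.1 in the Bithorax complex and 62.9 on the rest of 3R. Su(Hw) gave 26.5, 19.7 and 39.0, Mod(mdg4) 5.29, 2.81 and 10.4, and Isha 7.94, 11.2 and 33.3 peaks per Mb. With 3R parted into windows of the length of the interval, the 83 other windows had a median of 12 mock Isha peaks (0 to 43), and 14 of them had no more than the 3 of the Antennapedia complex. For CP190 the median was 26 (0 to 44) and 29 windows had no more than 22. For Su(Hw) the median was 17 (0 to 27), and 23 windows had no more than 10. For Mod(mdg4) it was 4 (0 to 10), and 30 windows had no more than 2. After knockdown the complex had 7 Su(Hw) peaks beside a median of 16, and 16 windows had no more. For CP190 there were 24 beside 28 (31 windows), for Mod(mdg4) 2 beside 3 (37 windows) and for Isha 0 beside 1 (29 windows). All 8 counts of the complex were under the median of the other windows and within their range. The windows and the rest of 3R were not matched for genes and take in DNA with few of them. One such stretch, 2089547 to 3621911 (1532 kb), held 3 complete protein-coding genes, 3 mock CP190 peaks and no mock Isha.

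**Figure D5:**
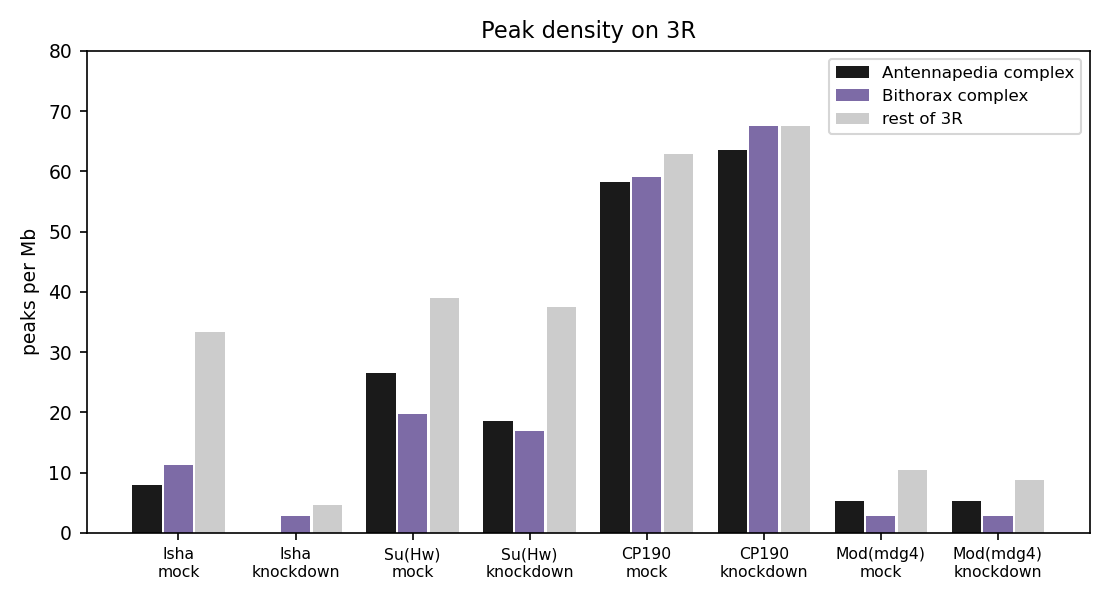
Peaks per Mb in the Antennapedia complex, the Bithorax complex (each with 20 kb margins) and the rest of 3R, for each list. In the mock lists the regions differ most for Isha and are near each other for CP190.

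Genes that act with or beside the Antennapedia complex were counted by the same rule for genes, with 1000 bp on either side. Of all genes, CP190 was at 61.0% in mock cells and 63.0% after knockdown, Isha at 49.7% and 14.8%, Su(Hw) at 22.6% and 20.9%, and Mod(mdg4) at 8.23% and 7.71%. Among 7 genes for Hox cofactors, mock Isha was at 2, exd, the partner that binds DNA with Hox proteins, and ftz-f1, the nuclear receptor that acts with Ftz. exd alone still had it after knockdown. CP190 was at 4 of the 7 in each treatment (exd, hth, ftz-f1 and disco-r), and Su(Hw) at 2 (hth and disco-r). Of the 3 Bithorax Hox genes, Ubx and Abd-B had CP190 and Su(Hw) in each treatment, and none had Isha.

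Among 18 segmentation genes, mock Isha was at 1, hh, which encodes the Hedgehog signal, CP190 at 3 (opa, inv and hh) and Su(Hw) at 1 (opa). After knockdown the counts were 0, 5 and 0, and CP190 was then also called at wg and at hairy, listed as hry. Among 9 homeobox genes of other clusters, mock Isha was at 0, CP190 at 2 (tin and lbl) and Su(Hw) at 3 (C15, slou and mirr). After knockdown CP190 was at 5 of them, Su(Hw) at the same 3 and Isha at 0. Mod(mdg4) was at 0 genes of these 4 lists in each treatment. No difference between these lists, the complex and all genes was tested.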

How the data were processed

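Chromatin from mock-treated and Isha-depleted Kc167 cells was immunoprecipitated in 2 replicates per group, 24 libraries in 12 groups. Reads were handled with Picard 2.22.2, SAMtools 1.9 and Bowtie2 2.4.1 on the dm6 build, per the submitters' processing notes. The sources used here give neither the peak caller and its threshold nor how replicates were joined. The deposited values are peak starts and ends only, so depth is unknown. Antibody and treatment were read from the list names, with "SwHw" taken as Su(Hw).

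Peaks on 2L, 2R, 3L, 3R, 4 and X were used, which left out 1 to 5 per list on Y. Starts are counted from 1. Gene spans came from a RefSeq table of Release 6 plus ISO1 MT, without strand. All 45 symbols looked up matched, h as hry. Overlap meant at least 1 bp. Shares have Wilson intervals at 95%. The members and lists were chosen with earlier results of these data known. The text names all members, the other genes of the interval that a peak overlapped or that bordered an interval named, and up to 6 examples of each list in list order, those with a peak first. Ass was added after its values were seen. The steps were checked on planted peaks. Python 3.11.15, NumPy 2.4.6, pandas 2.3.3 and matplotlib 3.10.9 were used. No sequence was used here.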

Additional observations from a re-analysis of the deposited data

How the results depend on the processing

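Of 77 values recomputed under the alternatives for 25 results, 59 stayed within 1.5 times the count or within the interval of the share, and 18 moved. With no added sequence beside lab and Antp, mock Isha peaks fell from 3 to 0. Members with mock Isha were 0 with the gene span alone, within 500 bp of a gene end, and with peaks at least as wide as the median of their list. With such wide peaks the interval held 4 mock and 3 knockdown Su(Hw) peaks, 13 knockdown CP190 peaks and 1 knockdown Mod(mdg4) peak. Within 500 bp of a gene end, Su(Hw) was at 1 member in mock cells and 1 after knockdown, CP190 at 2 after knockdown and Mod(mdg4) at 0 in each treatment. With 5000 bp on each side, mock Su(Hw) was at 5 members and Mod(mdg4) at 2 in each treatment. The share of mock Isha peaks with CP190 was 33.3% for midpoints within 250 bp, and that of mock Su(Hw) peaks with CP190 was 70% at 50% reciprocal overlap. Mock CP190 peaks kept after knockdown were 90.9% and 86.4% under those overlap rules. The Su(Hw) share kept was 70% under each. No paired analysis was possible because each group has a single list. For the same reason no replicate could be left out, and without a score per peak a stricter threshold could not be applied.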
